A study of Saccharomyces cerevisiae with 4 samples.

Results

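The 10 histone genes of Saccharomyces cerevisiae that were chosen by their systematic names are HTA1 (YDR225W) and HTA2 (YBL003C) for histone H2A, HTB1 (YDR224C) and HTB2 (YBL002W) for H2B, HHT1 (YBR010W) and HHT2 (YNL031C) for H3, HHF1 (YBR009C) and HHF2 (YNL030W) for H4, HHO1 (YPL127C) for the linker histone H1, and HTZ1 (YOL012C) for the H2A variant H2A.Z. All 10 were among the 7126 rows of the table, and all 10 were among the 6277 genes abundant enough to test. The RNA came from 2 libraries with the CRISPR interference guide named +116, which inhibits a noncoding RNA of the GAL10 gene, and 2 libraries with a scrambled guide. Both groups were strain BY4741, a laboratory yeast that is haploid and of mating type a, grown to mid-log phase on glucose in synthetic medium without leucine or uracil. In CRISPR interference a catalytically dead Cas9 protein, held at a site by its guide RNA, blocks transcription there. The design speaks of strains, each group has a library A and a library B, and the labels do not say how the cultures were started. The p-values therefore measure the spread between these libraries, which may be technical.

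Core histones form the protein spool of the nucleosome, around which DNA is wound, the linker histone binds outside that core, and H2A.Z replaces H2A in nucleosomes beside many promoters. In this yeast the core genes stand in divergent pairs, HTA1 with HTB1, HTA2 with HTB2, HHT1 with HHF1 and HHT2 with HHF2, and the genes of a pair are transcribed away from a shared upstream region. The core genes are transcribed mainly in S phase. The factor Spt10 binds upstream elements of all these pairs, SBF (Swi4 with Swi6) contributes to their activation, and the HIR complex represses all of the pairs but HTA2-HTB2 outside S phase. Histone mRNAs of yeast carry poly(A) tails, unlike most of those of animals, so a poly(A) library captures them.

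The regions between the divergent start codons are shown because the genes of a pair share them. Each line holds a match to the Spt10 element, searched as TTCCNNNNNNTTCNC on both strands, in capitals with 10 bases on either side, read 5′ to 3′ along the matching strand. The sequences are from RefSeq assembly R64 and were found by gene name.
HTA1-HTB1, chromosome IV, plus strand, 402 bases before either start codon: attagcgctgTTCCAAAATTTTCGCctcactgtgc
HTA1-HTB1, chromosome IV, minus strand, 379 bases before HTA1: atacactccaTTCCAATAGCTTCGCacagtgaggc
HTA2-HTB2, chromosome II, minus strand, 316 bases before HTA2: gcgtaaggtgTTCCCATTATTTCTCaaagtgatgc
HHT1-HHF1, chromosome II, minus strand, 260 bases before HHF1: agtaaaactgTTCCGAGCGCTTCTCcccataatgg
HHT2-HHF2, chromosome XIV, minus strand, 296 bases before HHT2: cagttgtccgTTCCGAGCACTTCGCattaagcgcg

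A match lay within the 500 bases before the start codon of all 8 core genes, and in none of those windows for HHO1 and HTZ1. Partners of a pair share these matches, so the 8 windows hold 5 different ones. Among 6019 protein-coding genes with such a window, 174 held a match, or 2.89%. The SBF motif CGCGAAA, searched on both strands, was present before HTB1, HHT2, HHF2 and HHO1 and in 5.80% of all windows. It overlapped none of the Spt10 matches. The SBF matches before HHT2 and HHF2 are the same site in their shared region. Those before HTB1 lie in the region it shares with HTA1, outside the HTA1 window. A match is a string of letters and not a measured binding site. Spt10 is known to bind upstream of all these pairs, so the Spt10 matches there are background. The share over all windows is then no test of them.

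The start codon regions of the paired H3 and H4 copies show how far reads can be told apart. HHT1 and HHT2 encode the same H3 protein, as HHF1 and HHF2 encode the same H4 protein, and the first 90 bases of each reading frame differ between the copies at the capital letters, at 8 positions for H3 and at 3 for H4 (RefSeq R64).
HHT1: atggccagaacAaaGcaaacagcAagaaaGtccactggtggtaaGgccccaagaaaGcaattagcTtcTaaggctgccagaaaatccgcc
HHT2: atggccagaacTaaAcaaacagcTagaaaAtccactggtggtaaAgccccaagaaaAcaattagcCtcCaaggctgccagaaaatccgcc
HHF1: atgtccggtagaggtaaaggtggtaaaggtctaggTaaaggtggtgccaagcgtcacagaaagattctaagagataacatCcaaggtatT
HHF2: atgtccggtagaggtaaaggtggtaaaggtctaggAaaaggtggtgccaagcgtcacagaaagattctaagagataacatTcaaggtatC

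Over the whole reading frame, HHF1 and HHF2 were 97.4% identical, with 8 differences in 312 bases and a longest identical run of 80 bases. HTA1 and HTA2 were 93.7% identical and HHT1 and HHT2 93.2%, with longest runs of 65 and 74 bases, and HTB1 and HTB2 were 87.9% identical with a longest run of 35 bases. Of all windows of 50 bases, 21.3% of those in HHF1, 12.2% in HHT1 and 4.57% in HTA1 were also in the other copy, against 0 in HTB1. Of windows of 100 bases, 0 were shared in any of the 4 pairs of copies. The read length and the treatment of reads with several matches are not given in the available sources. The split of reads between copies, of the H4 genes above all, is therefore uncertain.

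The libraries held 36731031 to 37077366 gene-assigned reads with +116 and 34215480 to 40628383 with the scrambled guide. The histone genes took 0.411% and 0.396% of these in +116 A and B, against 0.434% and 0.460% in scrambled A and B. Each member had 3037 to 33298 recovered reads per library, which gives a counting error (SD) of 1.81% to 0.548%. This covers counting error only. MET17, deleted in this strain, was at 0 in all 4 libraries. STE2, the pheromone receptor gene of mating type a, had 25639 to 26391 normalized reads with +116 and 25868 to 26546 with the scrambled guide, and STE3, that of the opposite type, had 302 to 378 with +116 and 359 to 371 with the scrambled guide. Values below are normalized reads as the authors deposited them. They were taken to be gene counts divided by a size factor per library, which was inferred from the values.

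The H2A genes had the largest differences of the set, and both were lower with +116. HTA2 had 13815 and 13121 normalized reads in +116 A and B, against 15351 and 16601 in scrambled A and B. HTA1 had 14585 and 13754 in the +116 libraries, against 15908 and 17416 in the scrambled ones. In both genes +116 B was the lowest library, scrambled B the highest, and the groups did not overlap. HTA2 had a log2 fold of −0.25 with a standard error (SE) of 0.054, 15.7% below the scrambled level, and a limma adjusted p of 0.05002, which missed the threshold of 0.05. HTA1 had a log2 fold of −0.23 (SE 0.056, limma adjusted p = 0.0560). Neither was called.

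The H2B genes differed less. HTB1 had 19624 and 18864 normalized reads with +116 and 20969 and 23323 with the scrambled guide. HTB2 had 14667 and 14358 with +116 and 15528 and 16383 with the scrambled guide. The groups did not overlap in either gene, and scrambled B was again the highest library. The log2 fold was −0.20 for HTB1 (SE 0.058, limma adjusted p = 0.0913) and −0.14 for HTB2 (SE 0.050, limma adjusted p = 0.151).

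Of the genes for H3 and H4, HHT2 stood nearest to no difference. It had 30338 and 29220 normalized reads with +116 and 30115 and 31337 with the scrambled guide, so that +116 A lay between the scrambled libraries. Its log2 fold was −0.05 (SE 0.052, limma adjusted p = 0.647). HHT1, which encodes the same protein, had 13098 and 13088 with +116 and 13749 and 15307 with the scrambled guide, without overlap. The log2 fold of HHT1 was −0.15 (SE 0.056, limma adjusted p = 0.160).

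Both H4 genes had lower values in the +116 libraries than in either scrambled one. HHF1 had 17213 and 16871 normalized reads with +116 and 18247 and 19779 with the scrambled guide, a log2 fold of −0.16 (SE 0.053, limma adjusted p = 0.128). HHF2 had 20867 and 19759 with +116 and 21296 and 24312 with the scrambled guide, a log2 fold of −0.16 (SE 0.063, limma adjusted p = 0.162). In HHF2 the scrambled libraries lay further from each other, 0.19 on the log2 scale, than the group means did.

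The genes for linker histone and H2A.Z overlapped between the groups. HHO1 had 4742 and 4350 normalized reads with +116 and 4933 and 4574 with the scrambled guide, a log2 fold of −0.06 (SE 0.058, limma adjusted p = 0.549). It was the only member whose highest library was scrambled A and not scrambled B. HTZ1 had 3287 and 3054 with +116 and 3268 and 3498 with the scrambled guide, a log2 fold of −0.09 (SE 0.058, limma adjusted p = 0.369).

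**Figure D1:**
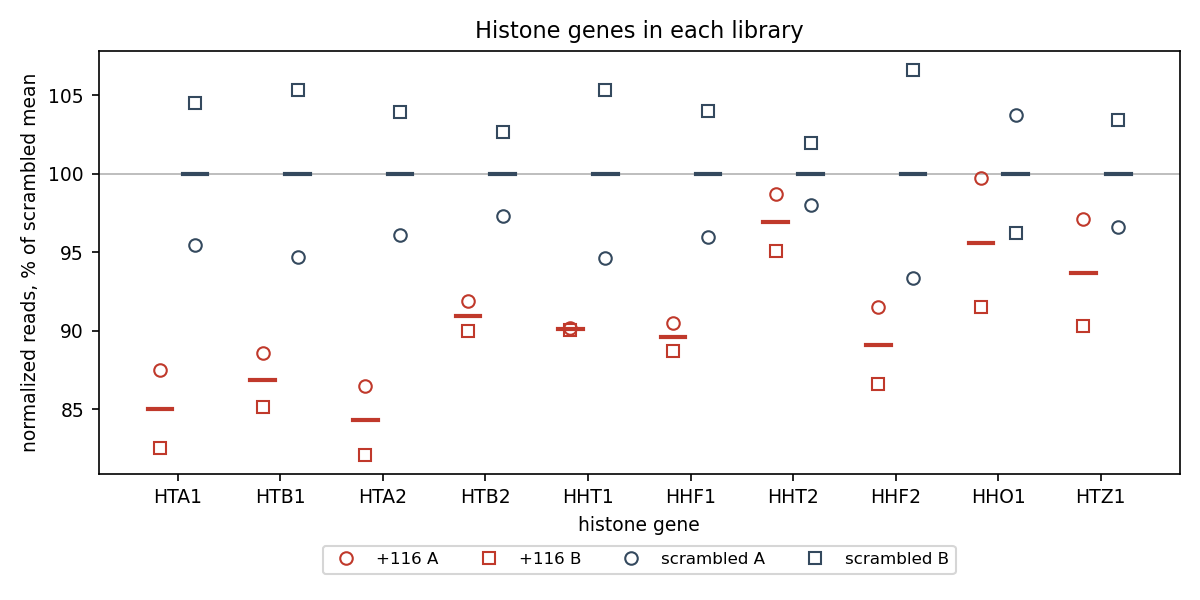
Normalized reads of each histone gene in each library, as a percentage of the mean of the 2 scrambled libraries (horizontal axis: gene; red: +116, dark blue: scrambled; circles: A, squares: B; lines: group means). In 7 genes both +116 libraries lie below both scrambled libraries, and in HHT2, HHO1 and HTZ1 the groups overlap.

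All 10 members had a log2 fold below 0, at a median of −0.15, against a median of 0.0013 over all tested genes. None was called lower at a limma adjusted p of 0.05, and none higher. Of all tested genes, 0.335% were called lower and 0.51% higher. At an unadjusted p of 0.05, 7 of the 10 were lower, against 10.3% of all tested genes (11.5% were higher). The same 7 had groups without overlap in the downward direction, against 26.3% of all tested genes (27.3% in the upward direction). These shares are over genes of all lengths and were not taken for short genes alone. Of the tested genes within the members' length range, 79.8% had a log2 fold below 0. With edgeR's quasi-likelihood test on the recovered reads HTA2 was called lower (adjusted p = 0.0426), where 0.956% of genes were called lower and 1.69% higher. DESeq2 called 3 members lower, HTA1 (adjusted p = 0.0156), HTB1 (0.0433) and HTA2 (0.00674), where 1.27% of genes were called lower and 1.59% higher. Over 16 alternatives in all, HTA2 was called in 8, HTA1 in 5, HTB1 in 3 and the other 7 members in 0, and the adjusted p of HTA2 ranged from 0.00387 to 0.665.

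Between the libraries of a group there were gaps as well, wider than the group difference in some members and narrower in others. In 5 of the 10 members the gap between libraries of one group was wider than the difference between the group means. On the log2 scale, centred on each gene's mean over the 4 libraries, the average of the 10 members was −0.04 in +116 A, −0.11 in +116 B, 0.03 in scrambled A and 0.12 in scrambled B. All 10 members were lowest in +116 B, and 9 were highest in scrambled B. How many of all tested genes, or of short genes alone, had these lowest and highest libraries was not counted. Without scrambled B the median log2 fold of the members was −0.10, and without scrambled A it was −0.22.

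Gene length moved with the group differences. The histone genes are short, at 312 to 777 bp, against a median of 1203 bp over the 5891 tested genes with a length. The 1370 tested genes within 312 to 777 bp centred on a log2 fold of −0.08 (median), and 79.8% of them were below 0, against 49.5% of all tested genes. The log2 difference between libraries rose with each doubling of gene length by 0.0316 to 0.0827 in the pairs of a +116 with a scrambled library. Libraries of the same group also differed with length, by 0.0247 from +116 A to B and −0.0264 from scrambled A to B.

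After each library was corrected for its trend with length, the median log2 fold of the histone genes was −0.030 and 8 of 10 were below 0. HTA2 then had a log2 fold of −0.13 (SE 0.034, limma adjusted p = 0.272), HTA1 −0.12 (SE 0.036, limma adjusted p = 0.30) and HTB1 −0.09 (SE 0.039, limma adjusted p = 0.401). HTB2, HHT1, HHF1, HHF2 and HHO1 lay between −0.036 and −0.0072. HHT2, at 0.067, and HTZ1, at 0.019, were above 0, with limma adjusted p of 0.415 and 0.848.

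**Figure D2:**
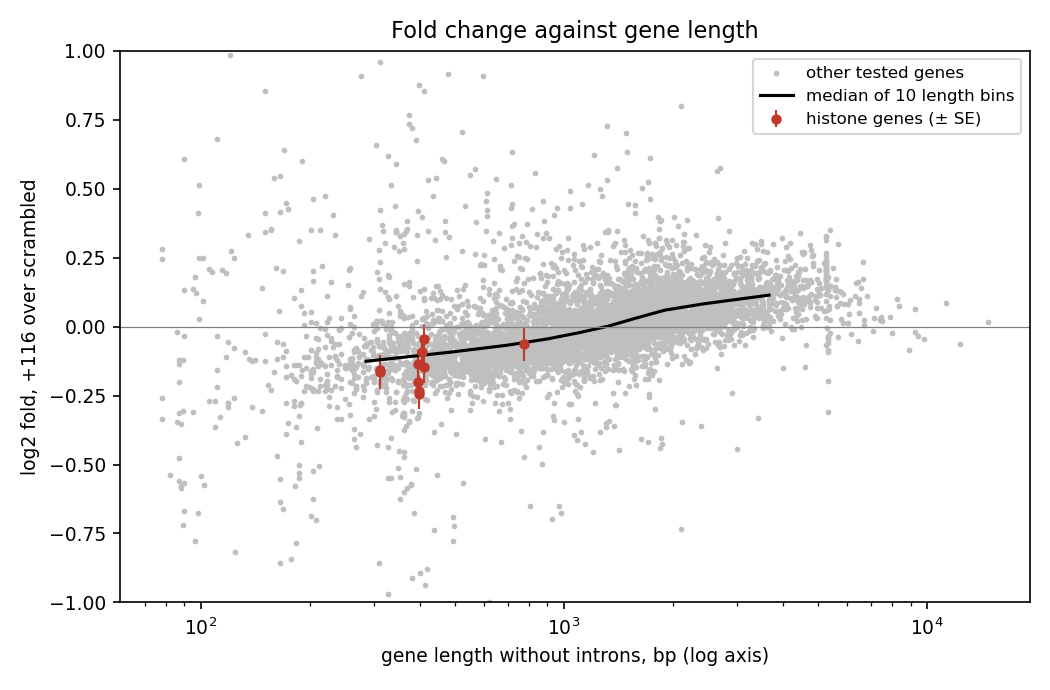
The log2 fold of +116 over scrambled (vertical axis) against gene length in bp on a log axis, for tested genes with a length (grey), the 10 histone genes with their SE (red) and the median of 10 bins of equal size (line). The line goes from −0.13 in the bin of the shortest genes to 0.11 in that of the longest. Of the histone genes, HTA1, HTA2 and HTB1 lie furthest below it. The axis leaves out 7 genes.

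**Figure D3:**
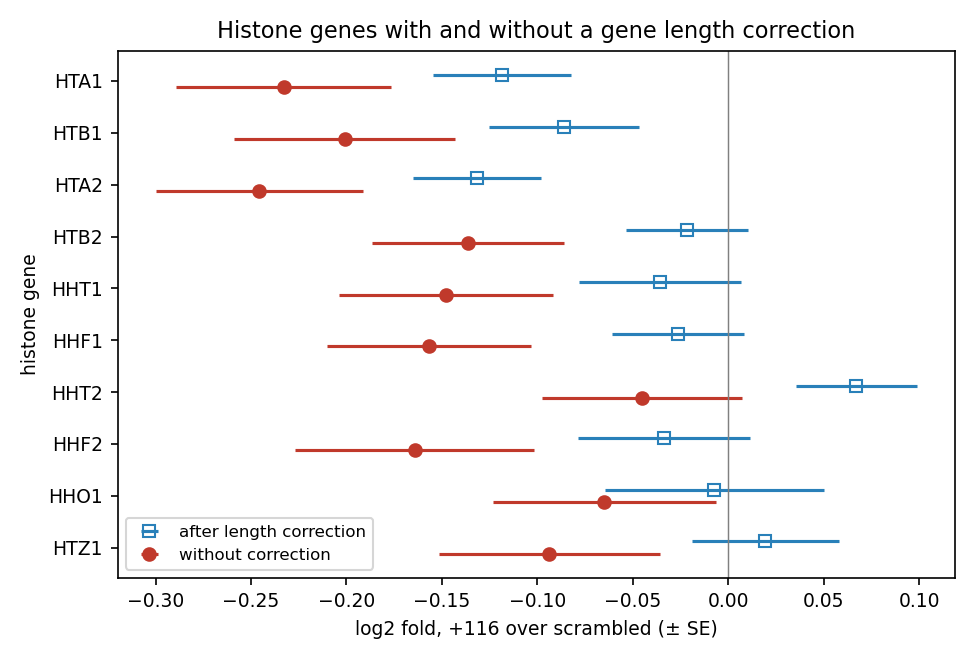
The log2 fold of +116 over scrambled with its SE for each histone gene, without a correction (red circles) and after the gene length correction (blue squares). After it, HTA1, HTA2 and HTB1 remain the members furthest below 0 and HHT2 and HTZ1 lie above 0.

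Levels were compared between genes as normalized reads per kb of coding sequence. HHT2 had the highest level, 72455 ± 1923 reads per kb with +116 and 74760 ± 2102 with the scrambled guide (SD, n = 2 each). HHF2 was second, at 65106 ± 2510 with +116 and 73090 ± 6834 with the scrambled guide, and its range overlapped that of HHT2. HHF1 and HTB1 followed, each overlapping the gene before it in range over the 4 libraries but lower than it in all 4.

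A gap without overlap separated HTB1 from HTA1, at 35512 ± 1471 reads per kb with +116 and 41759 ± 2672 with the scrambled guide (SD, n = 2 each). HTA1, HTB2 and HTA2 had overlapping levels. HTA1 was above HTB2 in 2 of 4 libraries, so their order is not resolved. HHT1 was the lowest core gene and below HTA2 in all 4 libraries, although their ranges overlapped, at 31856 ± 17.6 with +116 and 35347 ± 2680 with the scrambled guide.

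HTZ1 and HHO1 lay far below the core genes. HTZ1 had 7828 ± 406 reads per kb with +116 and 8353 ± 403 with the scrambled guide, and HHO1 had 5850 ± 357 with +116 and 6118 ± 326 with the scrambled guide (SD, n = 2 each). Their ranges overlapped neither each other nor those of the core genes.

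**Figure D4:**
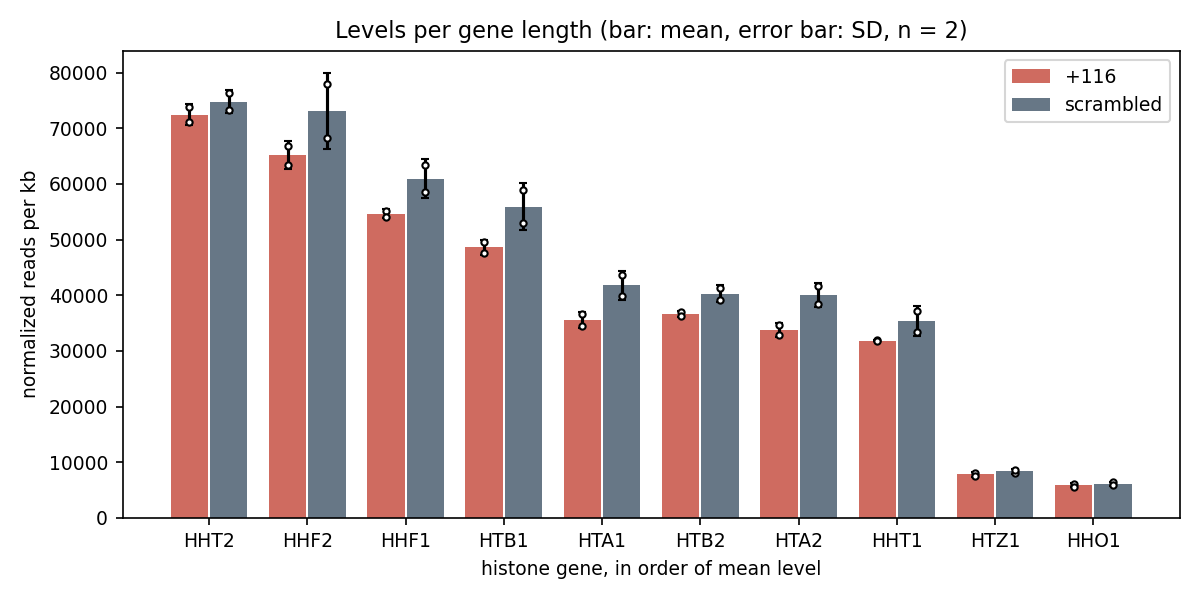
Normalized reads per kb of coding sequence for each histone gene (bars: group means; error bars: SD, n = 2; points: libraries; red: +116, dark blue: scrambled). The group means of the core genes span 31856 to 74760 reads per kb, and those of HTZ1 and HHO1 are at most 8353.

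Shares within a library do not depend on the scaling between libraries, and the 2 copies of each core histone have the same coding length. HHT2 supplied 69.8% and 69.1% of the H3 reads in +116 A and B, against 68.7% and 67.2% in scrambled A and B. HTB1 supplied 57.2% and 56.8% of the H2B reads with +116, against 57.5% and 58.7% with the scrambled guide. In both, the groups did not overlap, by differences of 1.54 and −1.09 percentage points between the group means. The difference for HHT2 was 0.800 without scrambled B, and that for HTB1 was −0.448 without scrambled B and −1.73 without scrambled A. For the other copies the groups overlapped. HTA1 supplied 51.4% and 51.2% of the H2A reads with +116 and 50.9% and 51.2% with the scrambled guide. HHF2 supplied 54.8% and 53.9% of the H4 reads with +116 and 53.9% and 55.1% with the scrambled guide, and the sign of its difference changed with the library left out.

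Within the divergent pairs, the ratio between partners differed most between the groups in HTA2-HTB2 and HHT2-HHF2. The level of HTA2 per kb was 0.935 and 0.907 of that of HTB2 with +116, against 0.981 and 1.01 with the scrambled guide. The HHT2 level was 1.10 and 1.12 times that of HHF2 with +116, against 1.07 and 0.978 with the scrambled guide, a difference of 0.087 that was 0.040 without scrambled B and 0.135 without scrambled A. The ratio of HTA1 to HTB1 was 0.738 and 0.724 with +116 and 0.753 and 0.741 with the scrambled guide, without overlap. The ratio of HHT1 to HHF1 overlapped between the groups, at 0.578 and 0.589 with +116 and 0.572 and 0.587 with the scrambled guide. HTA2 and HTB2 have 399 and 396 bp. HHT1 and HHT2 both have 411 bp, and HHF1 and HHF2 both have 312 bp. After the length correction described above, HHT2 had a log2 fold of 0.067 and HHF2 one of −0.034, and HTA2 had −0.13 and HTB2 −0.022. Whether length accounts for any of these ratios was not tested.

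Summed by protein, H2A and H2B transcripts were lower relative to H3 and H4 with +116. The totals per kb had log2 ratios of +116 over scrambled of −0.24 for H2A, −0.17 for H2B, −0.078 for H3 and −0.16 for H4. H2A thus differed most and H3 least, while H2B and H4 differed by similar amounts. These totals were not tested. The nucleosome core holds these proteins in equal number, while the transcript levels per kb were unequal in every library. H2A and H2B together had 0.693 and 0.686 times the level of H3 and H4 in +116 A and B, against 0.730 and 0.728 in scrambled A and B. The means were 0.690 ± 0.0045 with +116 and 0.729 ± 0.0016 with the scrambled guide (SD, n = 2 each). The ratio of H2A to H2B was 0.822 and 0.803 with +116 and 0.850 and 0.850 with the scrambled guide, and that of H3 to H4 was 0.866 and 0.877 with +116 and 0.842 and 0.803 with the scrambled guide. HTZ1 had 11.4% and 11.2% of the H2A level per kb with +116, against 10.3% and 10.1% with the scrambled guide. HHO1 had 1.58% and 1.51% of the summed level of the 8 core genes with +116 and 1.57% and 1.34% with the scrambled guide, which overlapped.

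In all, 13 such shares and ratios were compared. Where the groups did not overlap, the two-sided exact permutation p was 0.333, the smallest that 2 libraries against 2 can give, and 0.481 after Benjamini-Hochberg adjustment over the 13. This test therefore cannot pass a threshold of 0.05 here, and no other test of these ratios was run.

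**Figure D5:**
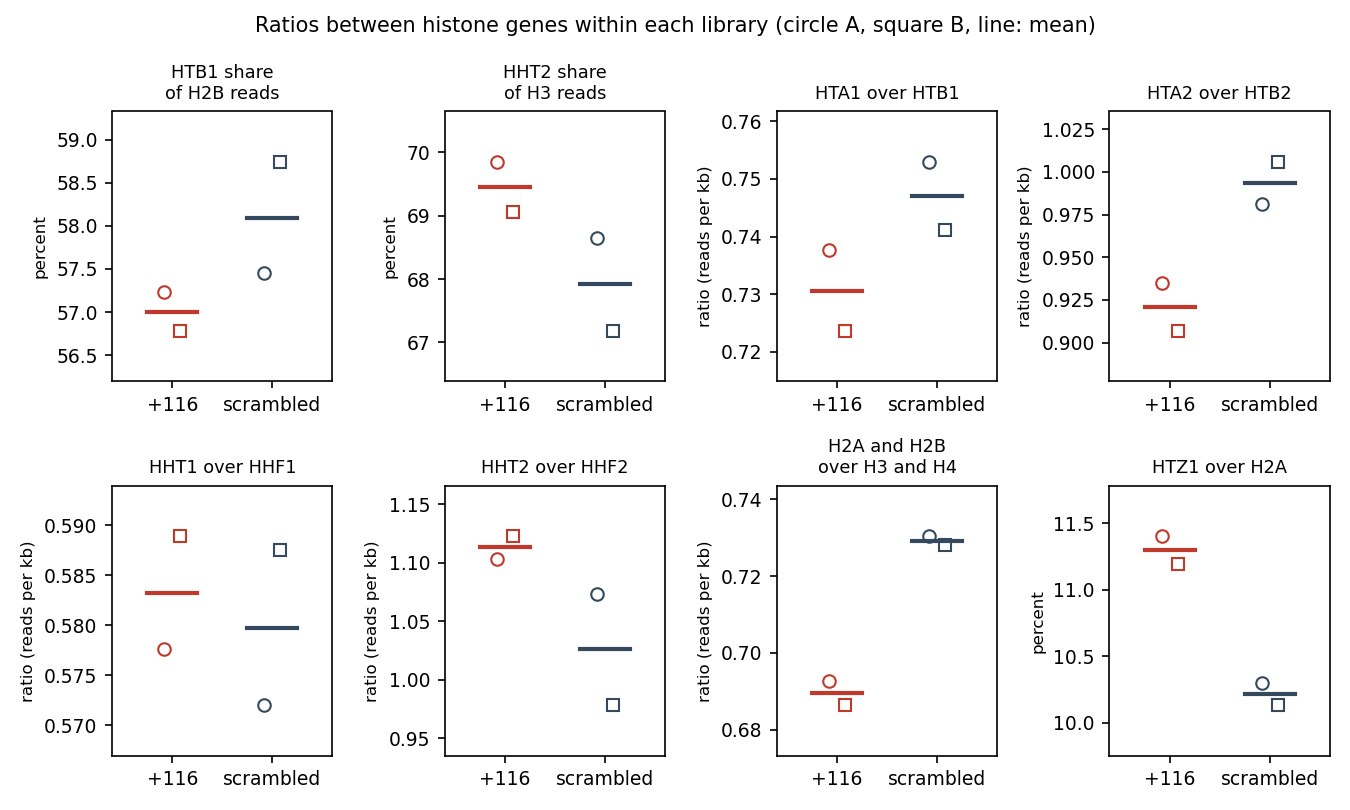
Shares and ratios between histone genes within each library, on axes that do not start at 0 (red: +116, dark blue: scrambled; circles: A, squares: B; lines: group means). The groups do not overlap in any panel except that of HHT1 over HHF1. Not plotted are the shares of HTA1 and HHF2 and the ratio of HHO1 to the core genes, where the groups overlap. Also left out are H2A over H2B and H3 over H4, where they do not.

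As sums of normalized reads, all 4 divergent pairs were lower with +116. HTA1-HTB1 summed to 34209 and 32619 with +116 and 36877 and 40738 with the scrambled guide, a log2 ratio of −0.22 between the group means that was −0.14 without scrambled B. HTA2-HTB2 had a log2 ratio of −0.19 and HHT1-HHF1 one of −0.15, which was −0.086 without scrambled B. HHT2-HHF2 had 51205 and 48980 with +116 and 51412 and 55649 with the scrambled guide, a log2 ratio of −0.10. Without scrambled B it was −0.038, and −0.15 without scrambled A. The 8 core genes summed to 144206 and 139036 with +116, against 151163 and 164456 with the scrambled guide, a log2 ratio of −0.16 that was −0.094 without scrambled B. These sums were not tested.

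Genes that control or handle histones gave no calls in either direction. Of 14 listed regulators of histone gene transcription, 10 were above 0 and 4 below, at a median log2 fold of 0.05, with 0 called by limma, 0 by edgeR and 0 by DESeq2. At an unadjusted p of 0.05, 4 of the 14 were higher and 0 lower, where 11.5% of all tested genes were higher and 10.3% lower. The same shares stand beside the counts at this p in the lists that follow. YTA7, which encodes a bromodomain ATPase at histone genes, had 4467 and 4618 normalized reads with +116 and 4119 and 4001 with the scrambled guide, a log2 fold of 0.16 (limma adjusted p = 0.109). SPT10, the activator gene, had 1044 and 1101 with +116 and 1023 and 852 with the scrambled guide, a log2 fold of 0.20 (limma adjusted p = 0.194), and SWI4 had 0.15 (0.164). The HIR complex genes HIR1, HIR2, HIR3 and HPC2 had log2 folds of −0.01, 0.06, 0.03 and 0.05. SPT21, whose product acts with Spt10, had −0.02 and YOX1, a cell cycle repressor gene, −0.02. The regulator genes are longer than histone genes, at a median of 2344.5 bp, and after the length correction their median was 0.01. YTA7 then had 0.047, SWI4 0.050 and SPT10 0.14. HIR1, HIR2, HIR3 and HPC2 then had −0.089, −0.030, −0.086 and 8.7e-05, SPT21 −0.091 and YOX1 −0.0084.

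Of 16 listed chaperone and deposition genes, 7 were above 0 and 9 below, at a median of −0.02, with 0 called by limma, edgeR or DESeq2 and 2 higher and 3 lower at an unadjusted p of 0.05. NHP6B, which encodes a small DNA-binding protein that works with the FACT chaperone, had 668 and 622 normalized reads with +116 and 780 and 779 with the scrambled guide, a log2 fold of −0.27 (limma adjusted p = 0.0820). MSI1, a subunit gene of the assembly factor CAF-1, had 1374 and 1382 with +116 and 1567 and 1577 with the scrambled guide, a log2 fold of −0.19 (limma adjusted p = 0.108). After the length correction MSI1 had −0.19 and NHP6B −0.14. SPT6 and SPT16, genes of histone chaperones that travel with RNA polymerase II, had 0.18 and 0.12 (limma adjusted p = 0.0949 and 0.190). With the length correction SPT6 had 0.067 and SPT16 0.019, and the list median was −0.032.

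The 6 genes of histone variants and their exchange had 3 above and 3 below 0, at a median of 0.04, with 0 called by the 3 tools and 2 higher and 0 lower at an unadjusted p of 0.05. INO80, a chromatin remodeller gene, had 0.21 (limma adjusted p = 0.0821). SWC2, a subunit gene of the SWR1 complex that deposits H2A.Z, had 0.16 (0.199). CHZ1, an H2A.Z chaperone gene, had −0.10, and SCM3, which encodes the chaperone of the centromeric histone, −0.11. CSE4, the gene of that centromeric H3 variant, had 1245 and 1264 normalized reads with +116 and 1280 and 1241 with the scrambled guide, a log2 fold of −0.01. With the length correction INO80 had 0.092, SWC2 0.084, CHZ1 0.0055, SCM3 −0.037 and CSE4 0.063, and the list median was 0.034.

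Of 5 genes of histone mRNA and protein turnover, 2 were above and 3 below 0, at a median of −0.02, with 0 called by the 3 tools and 1 lower at an unadjusted p of 0.05. That one was LSM1, a subunit gene of a cytoplasmic mRNA decay complex, at −0.15 (limma adjusted p = 0.125). RAD53, the checkpoint kinase gene that also limits free histones, had 0.13, PAP2 0.04 and TRF5 −0.03, the last a pair of nuclear poly(A) polymerase genes. With the length correction LSM1 had −0.056, RAD53 0.045, PAP2 −0.0054 and TRF5 −0.090, and the list median was −0.056.

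Of 16 G1/S and S phase genes, which peak near the time of histone transcription, 5 were above and 11 below 0, at a median of −0.06, with 0 called by the 3 tools and 3 lower and 0 higher at an unadjusted p of 0.05. RFA2, a gene of the single-stranded DNA binding factor, had −0.17 (limma adjusted p = 0.112) and SVS1, a cell wall gene, −0.14 (0.145). RNR1, for ribonucleotide reductase, had 0.09 and POL1, for DNA polymerase alpha, 0.09. After the length correction the median of this list was −0.06. RFA2 then had −0.12, SVS1 −0.080, RNR1 0.0021 and POL1 −0.027. The share of cells in S phase was not measured. In bulk RNA, fewer cells that transcribe histone genes and less histone RNA per cell would both lower histone reads, and cannot be told apart. The histone differences themselves also moved with the length correction, to a median log2 fold of −0.030.

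The genes whose pattern over the 4 libraries was most like the mean of the histone genes were DLS1, RPS14A, TMA7, EMC5 and SUI1. Likeness was the Euclidean distance between log2 values centred on each gene's mean, and these had distances of 0.0133, 0.0133, 0.0145, 0.0146 and 0.0149. All 5 are short, at 195 to 504 bp. With 4 libraries such closeness is a description only.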

How the data were processed

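Poly(A) RNA of 4 libraries was sequenced after stranded library preparation, per the labels' protocols. The authors deposited a normalized read count for each gene and library, a signal that is never negative. DESeq2, TopHat2 2.0.8 with TopHat, Trimmomatic 0.30, Bowtie2, bcl2fastq 1.8.4 and Picard 1.84 are named, without roles, per the submitters' processing notes. What genome build, annotation, counter and strand setting they used is not given in the sources used here. Coordinates are therefore not printed.

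All values (100%) of every library were multiples of 1 step (tolerance 1e-06 reads), which gave the recovered reads. The size factors inferred from these steps were 1.00 and 0.994 for +116 A and B and 1.11 and 0.913 for scrambled A and B. Genes with a mean of at least 5 entered a limma 3.58.1 fit (R 4.3.3) on log2(value + 1) with a trend of variance on mean, two-sided, with p-values adjusted by Benjamini-Hochberg over all 6277 genes at a threshold of 0.05. Fold changes are on that scale. The fit was tested on counts simulated with the same dispersion for all genes and no trend on gene length. The changes put in were larger than the histone differences. That test therefore does not cover the length trend or differences as small as those of the histone genes. Alternatives included edgeR 4.0.16 and DESeq2 1.42.0 on recovered reads. The length correction subtracts, in each library, a loess trend (span 0.3) on log2 gene length, introns left out. That trend is fitted to each gene's log2 value minus the gene's mean over the libraries. Of the rows, 6048 matched R64 by locus tag and 114 by a noncoding gene's name.

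The histone genes and related lists were chosen with earlier results of these data known. Genes named from the related lists are the 2 with the lowest p in each direction together with SPT10, SPT21, HIR1, HIR2, HIR3, HPC2, SWI4 and CSE4, which were fixed by name.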

Additional observations from a re-analysis of the deposited data

How the results depend on the processing

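All 10 histone genes kept a log2 fold below 0 under 15 of 16 alternatives, the exception being the length correction, where HHT2 was at 0.067 and HTZ1 at 0.019. Their median log2 fold of −0.15 became −0.030 with that correction, and −0.22 to −0.098 with 1 library left out. Against 0 histone genes called lower, 1 was called with a filter at a mean of 20, 2 with upper-quartile scaling, 3 with robust empirical Bayes, 1 with edgeR, 3 with DESeq2 and 0 to 3 with 1 library left out. Over all genes, 32 higher and 21 lower became 2 and 5 with no filter, 64 and 44 with the filter at 20, 50 and 77 with upper-quartile scaling, 0 and 1 without a trend, 245 and 165 with robust empirical Bayes, 0 and 1 with the length correction, 106 and 60 with edgeR and 100 and 80 with DESeq2. With 1 library left out, where the lone library of a group is assumed to vary like the others, they were 0 to 205 higher and 0 to 92 lower. Some alternatives hold other numbers of genes or libraries by construction. Upper-quartile scaling moved the median log2 fold of all tested genes from 0.0013 to −0.019. The causes of the changes in calls were not tested. Pseudocounts of 0.5 and 5 and TMM scaling changed no call of a histone gene.

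With the letter as a replicate block, 170 genes were called higher and 88 lower, and 2 histone genes lower, HTA1 (limma adjusted p = 0.0175) and HTA2 (0.00982). Nothing in the labels says that the letters pair the libraries, and the deviations of the A libraries from their group means had a correlation of −0.0413 across 6277 genes. With 1 library left out, the log2 ratios ranged from −0.29 to −0.14 for HTA1-HTB1, −0.24 to −0.14 for HTA2-HTB2, −0.22 to −0.086 for HHT1-HHF1, −0.15 to −0.038 for HHT2-HHF2 and −0.22 to −0.094 for the 8 core genes. The differences in share, in percentage points, ranged from 0.800 to 2.27 for HHT2, −1.73 to −0.448 for HTB1, 0.069 to 0.376 for HTA1 and −0.770 to 0.514 for HHF2. Those in the ratios per kb ranged from −0.043 to −0.036 for H2A and H2B over H3 and H4, −0.086 to −0.059 for HTA2 over HTB2, 0.040 to 0.135 for HHT2 over HHF2, −0.023 to −0.0094 for HTA1 over HTB1, −0.047 to −0.028 for H2A over H2B and 0.029 to 0.068 for H3 over H4. The sign of the difference changed for HHT1 over HHF1 (−0.0042 to 0.011) and for HHO1 over the core genes (−0.027 to 0.208 percentage points). Depth was not limiting for these genes, whose counting error was at most 1.81%, whereas 2 libraries a group limit every test.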
